A study of Rattus norvegicus with 4 samples.

Results

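Chemokine and formyl peptide receptors are described here as 8 genes, Ccr1, Ccr2, Ccr7, Cxcr2, Cxcr3, Cxcr4, Cx3cr1 and Fpr1, of 16581 genes named on the array. They were chosen by name: each non-control probe whose RefSeq accession belongs to one of these genes was taken, which gave 8 probes, 1 for each gene. The cells were NR8383, a line of rat alveolar macrophages established from lung lavage, which grows partly attached and partly floating. All 4 samples were cultures exposed for 4 h to 2 µg/mL of the iron oxide particle Fe2O3 (NRCWE018), described as grown for 20 passages and seeded 48 h ahead in flasks. Each culture was measured on 1 single-colour array, and the unexposed control cultures of the design were not analysed here, so no value below is an effect of the particle. A single established line stands for the macrophage here, and the labels name no further genotype or agent.

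Chemokine receptors are G protein-coupled receptors through which leukocytes read gradients of small secreted proteins, the chemokines. Formyl peptide receptors are a related family that reads peptides carrying formyl-methionine, which come from bacteria and mitochondria. In the lung, Ccr2 and Cx3cr1 are best known from blood monocytes and recruited macrophages, Cxcr2 and Fpr1 from neutrophils, Cxcr3 from activated T cells, and Ccr7 from dendritic cells and lymphocytes on their way to lymph nodes.

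Of the 8 receptor genes, Ccr1 and Cx3cr1 were well above background on all 4 arrays, and the other 6 were above background on none. The same held for 50.5% (all arrays) and 43% (none) of the 16581 named genes, with 6.45% detected on some arrays. Taken by probe, named or not, 36.5% of 45598 were detected on every array. The mark for well above background is the scanner software's own test of a spot against its background. A gene below background has only an upper bound, so it may still be transcribed. Each of the 8 genes had a single probe and a single spot per array, and none of these spots was marked as an outlier. In a bulk extract, fewer cells that transcribe a gene and less RNA per cell cannot be told apart.

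The bases that RefSeq's GRCr8 assembly places before the annotated start were matched by symbol for 7 of the 8 genes. They are shown for the 2 receptors above background and for Cxcr4, a receptor below background whose window holds a TATA motif. Each run is 250 bases on the gene's own strand. Capitals mark the hexamers GAGGAA, the core of sites bound by the macrophage factor PU.1, and TATAAA, both searched on both strands.
Ccr1, chr8:132439267-132439516, minus strand: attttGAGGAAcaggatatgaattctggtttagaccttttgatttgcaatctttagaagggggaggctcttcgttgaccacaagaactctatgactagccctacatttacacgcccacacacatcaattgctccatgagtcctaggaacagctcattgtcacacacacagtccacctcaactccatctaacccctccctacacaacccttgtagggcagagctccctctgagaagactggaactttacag
Cx3cr1, chr8:128677067-128677316, minus strand: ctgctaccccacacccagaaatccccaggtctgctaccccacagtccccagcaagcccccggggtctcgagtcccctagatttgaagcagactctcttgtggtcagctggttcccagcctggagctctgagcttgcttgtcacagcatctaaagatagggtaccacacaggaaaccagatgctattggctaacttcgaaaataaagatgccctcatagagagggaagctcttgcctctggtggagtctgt
Cxcr4, chr13:42634289-42634538, minus strand: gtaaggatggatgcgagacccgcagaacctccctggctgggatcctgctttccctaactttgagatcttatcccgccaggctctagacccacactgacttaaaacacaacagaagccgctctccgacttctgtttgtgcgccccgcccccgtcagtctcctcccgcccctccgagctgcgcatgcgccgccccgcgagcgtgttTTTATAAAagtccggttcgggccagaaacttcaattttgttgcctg
The start used for Cx3cr1 lies inside the annotated gene, whereas those of Ccr1 and Cxcr4 lie at its outer end. Ccr1 held 1 GAGGAA, at -245 from the start. Fpr1, below background on every array, also held 1, at -152, from a start inside the annotated gene. Cx3cr1 held neither hexamer, and neither did Ccr2, Cxcr2 and Cxcr3. Cxcr4 held no GAGGAA and 2 overlapping TATAAA matches on opposite strands, the first at -46. GAGGAA was found in the upstream bases of 23.2% of named genes above background on all arrays, 22.9% of those above background on none and 23.3% of all 33469 windows in the table. TATAAA was found in 6.95% of the windows of genes above background on all arrays, 16.9% of those above background on none and 12.9% of all windows. These matches are descriptions of the letters and were not tested as sites.

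Ccr1 is a receptor for the macrophage inflammatory protein chemokine Ccl3 and for Ccl5. It gave processed signals of 643, 888, 761 and 442 in exposed replicates 1 to 4, in arbitrary units after background subtraction. The local background around these spots had a median of 40.5, 43, 45 and 46. Relative to each array's 75th percentile, the log2 level of Ccr1 was -0.74, -0.15, -0.51 and -0.78, a mean of -0.54 ± 0.29 (SD, n = 4). Replicate 2 was highest and replicates 1 and 4 lay close together at the low end, with a ratio of 1.55 between the highest and the lowest.

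Cx3cr1, the receptor for the membrane-bound chemokine fractalkine (Cx3cl1), gave processed signals of 301, 195, 209.8 and 157 in replicates 1 to 4. Its log2 level was -1.83, -2.34, -2.37 and -2.27, a mean of -2.20 ± 0.25 (SD, n = 4). Replicate 1 was highest and the other replicates lay within 0.10 of each other. The low signal on replicate 4 went with that array's low brightness: its 75th percentile was 756, against 1072, 984 and 1082 on replicates 1 to 3.

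The other 6 receptors stayed near the floor of the measurement. Their 24 processed signals ranged from 4.58 to 15.1, whereas the lowest signal of any spot marked well above background was 20.7 to 23.7, depending on the array. In 15 of the 24 spots the software did not find the signal positive and significant, and there it reported a signal within 1% of its own error estimate, so these values have no order among themselves. Before that step, 8 of the 24 background-subtracted signals were below 0.

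Ccr2, which draws monocytes towards Ccl2, had signals of 6.68, 5.11, 5.58 and 5.08 in replicates 1 to 4. Ccr7, the lymph node homing receptor, had 15.1, 6.77, 13.3 and 5.33, and was positive and significant on 3 arrays without being well above background on any. Among the receptors of CXC chemokines, Cxcr2 had 12.1, 5.02, 5.53 and 5.17. These 3 genes were at the floor on at least 1 array each.

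Cxcr3, the receptor for interferon-induced chemokines, had signals of 5.26, 4.58, 4.99 and 5.21, with no spot positive and significant. Cxcr4, the receptor for Cxcl12 that holds leukocytes in the bone marrow, had 9.91, 12.3, 5.18 and 6.39 and was positive and significant on 3 arrays. Fpr1, the formyl peptide receptor itself, had 5.63, 5.20, 5.76 and 5.45, with no spot positive and significant. Positive and significant spots were thus most frequent for Ccr7 and Cxcr4 and missing for Cxcr3 and Fpr1.

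**Figure D1:**
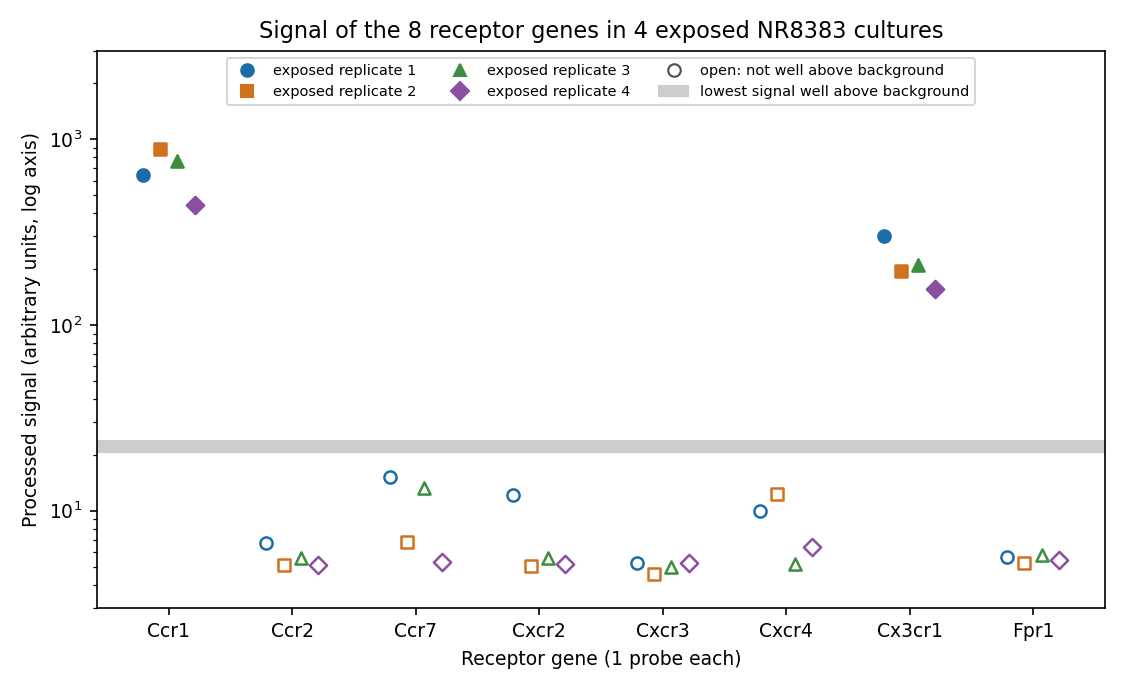
Processed signal (arbitrary units, log axis) of the 8 receptor genes in exposed replicates 1 to 4, with filled points for spots well above background, open points for spots that were not, and a grey band for the lowest signal well above background on the 4 arrays (20.7 to 23.7). Ccr1 and Cx3cr1 lie above the band on every array and the other 6 genes below it on every array. Heights of different probes cannot be compared as transcript levels.

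The other receptors that were on the array gave a similar mixture. Of 13 other chemokine receptors, 5 were above background on all 4 arrays (Ccr9, Ccrl2, Cxcr1 and Cxcr5 among them), Ackr2 on 1, and Ccr3, Ccr4, Ccr6, Ccr10, Cxcr6, Xcr1 and Ackr3 on none. Ccrl2, an atypical receptor that binds the chemoattractant chemerin, was at a log2 level of -1.94, -1.34, -1.76 and -1.57 in replicates 1 to 4. Cxcr1, a relative of Cxcr2 that also reads CXC chemokines of neutrophils, was at 1.17, 0.95, 0.90 and 1.44, while the Cxcr2 probe was below background on every array. Of 8 receptors for other chemoattractants, 3 were above background on all arrays, C3ar1 and Ptgdr2 on some, and the chemerin receptor Cmklr1 and the leukotriene receptors Ltb4r and Ltb4r2 on none. The complement C5a receptor C5ar1 was at 1.43, 0.84, 1.08 and 1.92, its relative C5ar2 at -0.62, -0.64, -0.46 and -0.13, and the platelet-activating factor receptor Ptafr at -1.45, -1.76, -1.98 and -1.62. Counted together, 10 of 29 receptor genes were above background on all arrays, against 50.5% of the 16581. Ccr8, Ackr1, Ackr4, Fpr2 and Fpr3 were not matched to a probe by accession.

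**Figure D2:**
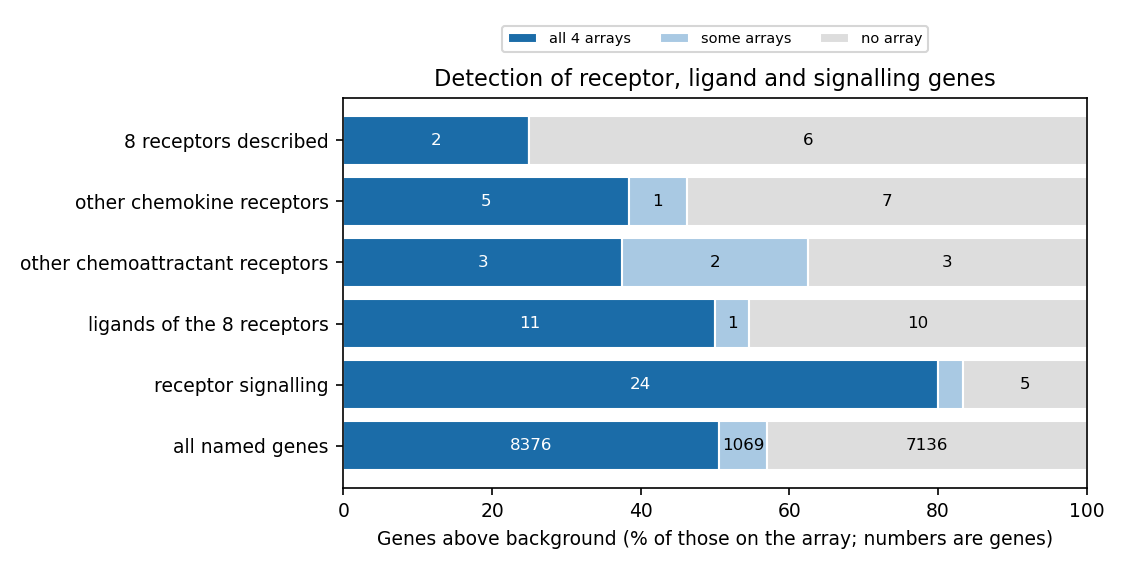
Share of genes detected above background, by number of arrays (all 4, some or none; % of the genes on the array; the numbers in the bars are genes) for the 8 receptors, the other receptor lists, the receptors' ligands, their signalling genes and all named genes. The 8 receptors have 2 genes above background on all arrays and 6 on none, and the signalling list has 24 of 30 on all arrays.

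In the GRCr8 gene order, Ccr1, Ccr3 and Ccr2 follow one another on chromosome 8 among the receptors listed. Ccr1 was above background on every array, and Ccr3 and Ccr2 were on none. Probes of one gene did not always give the same answer. Ccr9, a receptor known from gut-homing lymphocytes, had 1 probe above background on all arrays, at a log2 level of -2.67, -3.10, -3.04 and -2.98, and 1 above background on replicate 3 alone. The processed signals of the first probe were 168.6, 115.2, 131 and 96.1 in replicates 1 to 4, and those of the second 12.4, 4.89, 49.7 and 5.06. Cxcr5, known from B cells, also had 1 of 2 probes above background on all arrays, with signals of 66.1, 57.9, 56.6 and 32.1 in replicates 1 to 4, against 5.18, 4.50, 4.83 and 4.69 for the other probe. Such a split between probes was seen in 3 of the 7 receptor genes that had several, against 862 of 3658 named genes with several probes (23.6%). The 8 genes described here have 1 probe each, so no second probe bears on their values.

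**Figure D3:**
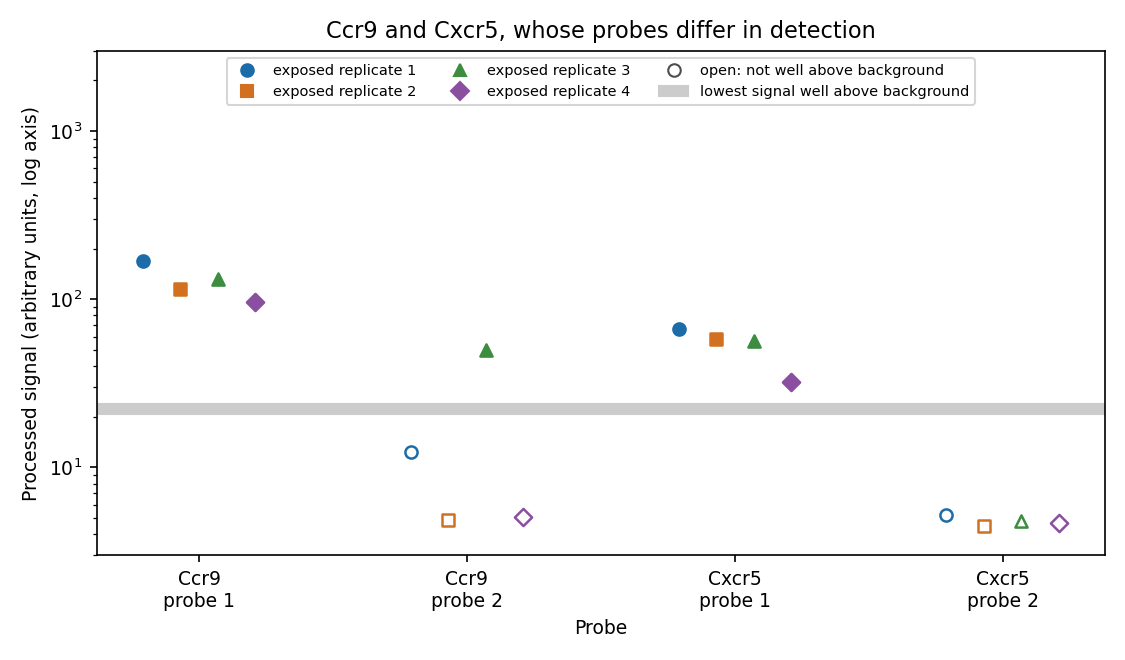
Processed signal (arbitrary units, log axis) of each probe of Ccr9 and Cxcr5 in exposed replicates 1 to 4; filled points were well above background, open points were not, and the grey band is the lowest signal well above background on the arrays. Within each gene, 1 probe lies above the band on all 4 arrays and the other does not.

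Receptor and ligand genes were set side by side by their textbook pairs. All 5 listed ligands of Ccr1 were above background on all arrays: Ccl3 at a log2 level of 5.01 ± 0.24, Ccl5 at -3.79 ± 0.34, Ccl6, Ccl7 and Ccl9 (SD, n = 4), of which Ccl6 and Ccl9 are known as Ccr1 ligands in mouse. For Cx3cr1 the ligand gene Cx3cl1 was above background on none, though it was positive and significant on all 4 arrays. Ccr2 was the reverse case, with the receptor below background and 2 of 3 ligands, Ccl2 (4.14 ± 0.13) and Ccl7, above it. Of the ligands paired with Cxcr2, 1 of 4 on the array was above background (Cxcl2). For Cxcr3 it was 1 of 3 (Cxcl10). Cxcl12, paired with Cxcr4, and Ccl19 and Ccl21, paired with Ccr7, were above background on none, like the paired receptors. Ccl4 and Mif, also in the ligand list and above background on all arrays, were not paired with a receptor here. Annexin A1 (Anxa1), a ligand of formyl peptide receptors, was above background on all arrays, while Fpr1 was on none. Over the whole ligand list 11 of 22 genes on the array were above background on all arrays, against 50.5% of all named genes. Pf4 was on 1 and 10 genes were on none. With the positive and significant mark the count on all arrays was 15, with Cx3cl1, Ccl12, Cxcl9 and Pf4 added.

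The signalling genes behind these receptors were mostly above background. Of 30 on the array, 24 were on all arrays, against 50.5% of all named genes. The phosphoinositide 3-kinase catalytic subunit Pik3cg was on some arrays, and 5 genes were on none. The inhibitory G protein subunits, which couple chemokine receptors to the cell, differed: Gnai2 was at a log2 level of 6.01 ± 0.11 and Gnai3 at 1.04 ± 0.23, while Gnai1 and Gnao1 were above background on none. The G protein beta subunits Gnb1 (3.57 ± 0.15) and Gnb2 (6.47 ± 0.14) were above background on all arrays, and the gamma subunit Gng2 on none. The arrestins Arrb1 and Arrb2 and the receptor kinases Grk2, Grk3, Grk5 and Grk6, which switch off and internalise receptors, were above background on all arrays. A further probe of Arrb1 was above background on no array. With every probe of a gene required, the count of signalling genes on all arrays was 22 in place of 24. Of the RGS genes, which shorten G protein signals, Rgs1, Rgs2, Rgs10, Rgs14 and Rgs19 were above background on all arrays and Rgs16 and Rgs18 on none.

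Markers of cell types were read from lists that include other leukocytes. Their counts stand beside 50.5% of all named genes above background on all arrays and 43% on none. Of 12 macrophage markers 10 were above background on all arrays, and Marco and Adgre1 on none. Of 10 neutrophil markers 3 were (S100a8, Camp and Cxcr1, which is also in the receptor list), while S100a9, Elane, Ctsg, Ngp, Ltf, Csf3r and Mmp8 were above background on none. Of 11 T and NK cell markers 7 were: the T cell receptor component Cd3d, the co-receptor Cd4, the kinase Lck, the costimulatory receptor Cd28, Il7r, Nkg7 and Gzmb. Cd3e and Cd3g, also T cell receptor components, the co-receptor Cd8a and Klrb1 were above background on none. Of the 7, 4 were above background by every probe they had. Of 7 B cell and dendritic cell markers 3 were (Pax5, Batf3 and Cd83), Cd79b was on 1 array, and Zbtb46 and Xcr1 were on none. Of 14 markers of lung epithelium, endothelium and fibroblasts 5 were: the endothelial markers Vwf, Pecam1 and Cdh5, the ciliated cell factor Foxj1 and the fibroblast proteoglycan Dcn. Sftpc, Sftpb, Scgb1a1, Epcam, Cdh1, Kdr, Col1a1, Col3a1 and Pdgfra were on none. The mark does not grade the signal. Of the neutrophil markers detected, S100a8 was faint, with a mean log2 level of -4.38 (Camp -0.22, Cxcr1 1.12). The lowest level of any spot marked well above background was -5.65 to -5.00, depending on the array. By their labels all 4 samples were cultures of 1 line, NR8383, and not a tissue of several cell types. Why markers of other cell types were detected in it was not tested.

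The variation of the 2 detectable receptors between the exposed cultures was compared with that of genes of like level. In limma's comparison of variances over the 8376 named genes above background on all arrays, 16 genes (0.191%) had an adjusted p under the threshold of 0.05, and neither Ccr1 nor Cx3cr1 was among them. For Ccr1 the SD of 0.29 stood against 0.19 fitted for genes of its level (unadjusted p = 0.149, limma adjusted p = 0.987). For Cx3cr1 it was 0.25 against 0.22 (unadjusted p = 0.348, limma adjusted p = 0.995). The median SD over all 8376 genes was 0.18, and 81.9% of them had a smaller SD than Ccr1 and 73.7% a smaller one than Cx3cr1. The software's own error for the spots was about 0.14 on the log2 scale for Ccr1 and 0.15 for Cx3cr1. Beside it the SD between cultures was 1.99 and 1.67 times as large, against a median of 1.17 over all genes. That error differed little between most genes (median 0.145, 75th percentile 0.150), so the ratio largely restates the SD. Differences between cultures and between arrays cannot be told apart here, since each culture had 1 array. None of the 10 receptor genes above background passed limma's test, and 1 of them, C5ar1, had an unadjusted p under 0.05. It was 0.00646 (limma adjusted p = 0.381), and C5ar1 was highest on replicate 4 and lowest on replicate 2.

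**Figure D4:**
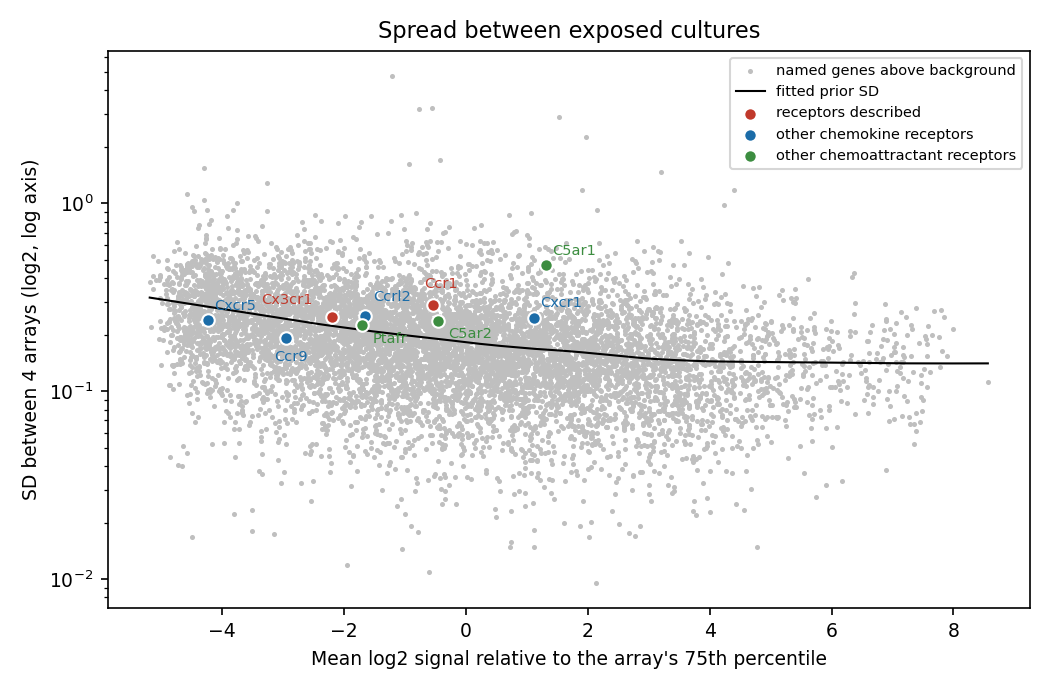
SD between the 4 arrays (log2, log axis) against the mean log2 level, scaled as in the text, for the 8376 named genes above background (grey), with the fitted prior SD as a line and receptor genes coloured and named. Ccr1 (SD 0.29) and Cx3cr1 (SD 0.25) lie above the line within the cloud, and C5ar1 (SD 0.47) is the receptor with the highest SD.

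The 2 receptors did not vary alike. Ccr1 deviated from its own mean by -0.19, 0.39, 0.04 and -0.23 in replicates 1 to 4, and Cx3cr1 by 0.37, -0.14, -0.16 and -0.07. Replicate 2 thus carried most of the spread of Ccr1 and replicate 1 that of Cx3cr1: without replicate 2 the SD of Ccr1 was 0.15, and without replicate 1 that of Cx3cr1 was 0.05. Around the Ccr1 spot, the 38 neighbouring probes above background had median deviations between -0.04 and 0.04 on the 4 arrays. Around the Cx3cr1 spot, the 25 neighbouring probes had median deviations between -0.02 and 0.05. The median shifts were thus small. Each receptor's excess was read on the array where it was highest, so its being larger than a median over neighbours decides nothing. The highest single neighbour deviated by 0.33 on replicate 2 for Ccr1 and by 0.55 on replicate 1 for Cx3cr1. Whether place on the array played a part was not tested.

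**Figure D5:**
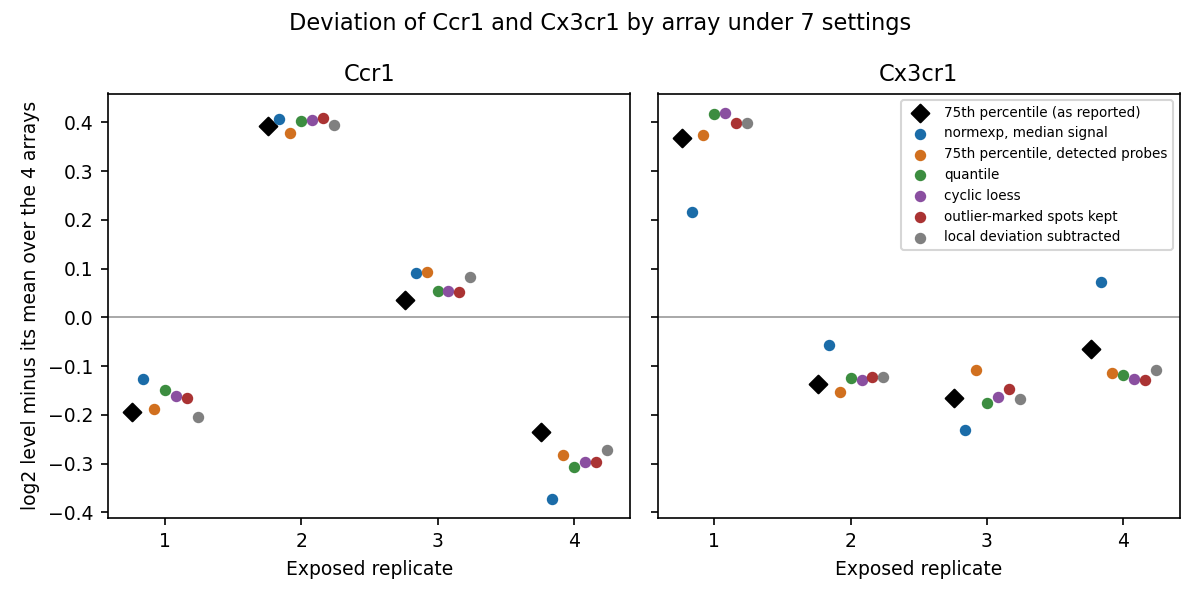
Deviation of the log2 level of Ccr1 (left) and Cx3cr1 (right) from its mean over the 4 arrays, by exposed replicate, with diamonds for the values as reported and circles for 6 other ways of correcting or scaling the signal. Ccr1 is highest on replicate 2 and Cx3cr1 on replicate 1 under all 7.

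Genes whose deviations over the 4 arrays were most like those of each receptor were found by the root mean square difference on the log2 scale among 8375 other named genes above background. For Ccr1 these were LOC100912041 (0.03), Pkib (0.03) and Kif5b (0.04), and 50 genes lay within 0.10. For Cx3cr1 they were Fut7 (0.01), Cyb561d2 (0.02) and Pgm1 (0.03), and 151 genes lay within 0.10. Fut7, for example, was at -3.13, -3.66, -3.69 and -3.58 in replicates 1 to 4. With 4 arrays such a likeness is only a description of these samples.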

How the data were processed

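Total RNA was labelled with Cy3 and hybridised to Agilent rat arrays, per the labels' protocols. The authors extracted spot intensity with Agilent software, and the submitters' processing notes name Feature Extraction, version 11.0.1.1. Per the file headers, each processed signal intensity was background-subtracted and detrended within its array, and they record no scaling across arrays. Further deposited columns gave spot and background intensity, the signal's error and flags, per the file headers. Any later scaling by the authors is not given in these sources.

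The 4 samples formed 1 group by their titles, which also number the replicates. The design states that replicates are biological, and the 4 arrays share 1 slide, so slide was no batch. Control spots and outlier-marked spots were left out, unless all spots of a probe were marked. From the log2 signal the 75th percentile of the array's remaining spots was subtracted. Of 45598 probes, 21109 were named through RefSeq accessions (GRCr8, used for names, gene order and upstream bases). A gene with several probes was represented by the one above background on most arrays, then by the highest mean. A probe with repeat spots counted as above background when a share above 0.5 of them were. Between 37.8% and 41.2% of probes were above background per array, no spot was saturated, and no arrays held identical values. The number of arrays limits the precision.

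Files were read with the package data.table (1.17.8). Variances between arrays were tested in R 4.3.3, using limma 3.58.1, by an upper-tail F test against a robust prior trend on mean level, with prior degrees of freedom 9.16 and Benjamini-Hochberg adjustment over 8376 genes, checked on simulated data. Named genes were the 8 members, list genes by detection, with values for the first 4 above background in each receptor, ligand and signalling list, and for each detectable member the 3 genes of most similar deviations. Where a gene falls outside this rule, it was named after its values were seen. Alternatives covered the detection mark, background correction, scaling, prior and left-out replicates. Values of some list genes are not reported here, though the lists' counts include them. Members and lists were chosen with earlier results of these data known.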

Additional observations from a re-analysis of the deposited data

How the results depend on the processing

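The count of 2 members above background on all arrays was unchanged with the positive and significant mark and with 1 array required. It was also unchanged with every probe of a gene required and with every repeat spot required, the last chosen after seeing the data. Neither of these 2 requirements could change it, since each member had 1 probe and 1 spot. With every probe required, the other chemokine receptors above background on all arrays numbered 2 in place of 5, and the T and NK cell markers 4 in place of 7. With the positive and significant mark, or with 1 array required, the other chemoattractant receptors numbered 5 in place of 3. The ligands numbered 15 in place of 11 with the positive and significant mark. The share above background on all 4 arrays was 36.5% over all probes, against 50.5% over named genes.

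The mean level was -1.78 for Ccr1 and -3.44 for Cx3cr1 when only probes detected on every array set the 75th percentile, which shifts all levels down. Under the other 10 alternatives, both levels stayed within 1 SD of the values reported. Among these, the mean over a gene's probes could not change them, since each receptor had 1 probe. Leaving out 1 replicate gave -0.67 to -0.46 for Ccr1 and -2.32 to -2.15 for Cx3cr1. Neither receptor passed the test of spread under any of 14 alternatives, with limma adjusted p from 0.815 to 0.991 for Ccr1 and from 0.981 to 0.998 for Cx3cr1. No receptor gene passed under the 13 alternatives fitted to all genes. The number of all genes passing was 156 after normexp correction, run on the median signal in place of the mean signal, 25 with outlier-marked spots kept, 10 with a prior that was not robust, 5 with a constant prior variance, and 7 to 22 without 1 replicate, the lowest without replicate 2. The cause was not tested.

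The gap between replicate 1 and the other replicates took up 0.814 of the range of Cx3cr1, under Dixon's critical value for 4 samples. It exceeded that value under 5 of 6 other settings, one of which, subtracting the local deviation, was chosen after seeing the data. Under normexp the largest end gap was 0.389. The error from the pixels within a spot was not run. No paired analysis was possible because only 1 group was analysed.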
